A study of Sus scrofa with 9 samples.

Results

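The genes described here are cell-surface and matrix proteoglycans of the tooth germ and the receptor for hyaluronan. They were chosen by symbol from a list of 10: the syndecans SDC1, SDC2, SDC3 and SDC4, the glypicans GPC1 and GPC3, perlecan (HSPG2), versican (VCAN), hyaluronan synthase 2 (HAS2) and CD44. Of these, 9 were matched among the 34580 genes and transcripts listed, and HAS2 was not analysed here.

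Syndecans are transmembrane proteins and glypicans are anchored to the membrane by a lipid. Both carry heparan sulfate chains that bind growth factors and present them to their receptors, as does perlecan, a large proteoglycan of basement membranes such as that between enamel epithelium and dental papilla. Versican carries chondroitin sulfate, binds hyaluronan and is held to it by the link protein HAPLN1, which gives a swollen, loose matrix typical of embryonic mesenchyme, while CD44 is the main receptor by which cells hold on to hyaluronan.

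Germs of the third mandibular deciduous molar (Dm3) of miniature pigs were collected on 3 days of gestation. E40 (embryonic day 40) stands for the cap stage, E50 for the early bell stage, in which the enamel organ folds into a bell, and E60 for the late bell stage, in which enamel and dentin begin to form. Each stage has 3 libraries of total RNA, 9 in all. The fetuses of all stages were delivered by cesarean section from sows under ketamine and xylazine, the labels name no other treatment and no genotype or strain beyond the miniature pig. The study calls the libraries of a stage biological replicates without saying whether each came from a separate litter, fetus or pool of germs, so p-values here measure only the spread between these libraries. Values are FPKM, that is, fragments per length of transcript and per size of library, so levels of different genes can be compared per length.

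The whole reads behind the FPKM values were recovered, and they fell into a deep set of 4 libraries, with 14362235 to 16674750 reads (E50 libraries 1, 2 and 3 and E60 library 1), and a shallow set of 5 libraries, with 938527 to 1760356 reads (E40 libraries 1, 2 and 3 and E60 libraries 2 and 3). The 3 entries LOC102158401, TEX14 and LOC102165137 together took 29.0% to 52.3% of the reads of each shallow library and at most 0.611% of a deep one, which lowers the FPKM of every other gene in the shallow set. Pearson's r of log2(FPKM + 0.1) across genes was 0.301 to 0.609 between libraries of different sets, 0.743 to 0.838 within the shallow set and 0.959 to 0.983 within the deep set. Between E40 and E50, stage and library set cannot be told apart, and E60 holds libraries of both sets.

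Markers of the germ were found at all stages. Summed FPKM of enamel epithelium markers (10 of 11 symbols matched, CDH1 listed at 0) was 3401 to 4877 at E40, 2407 to 3368 at E50 and 4733 to 21548 at E60, where the enamel matrix gene AMBN stood at 10410, 2181 and 5371 FPKM in libraries 1, 2 and 3, against at most 6.48 FPKM in any E40 or E50 library. Dental mesenchyme markers (9 of 9) summed to 1387 to 2097 FPKM at E40, 4686 to 5224 at E50 and 1311 to 4787 at E60. Skeletal muscle markers (4 of 6, CKM listed at 0) summed to 38.6 to 59.7 FPKM at E40, 4.70 to 5.96 at E50 and 3.36 to 9.59 at E60. Cartilage and bone markers (5 of 6) summed to at most 43.4 FPKM and nerve markers (5 of 6) to at most 2.42 FPKM in any library.

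Among the syndecans, SDC1 and SDC2 were the most abundant. SDC1, the main syndecan of epithelia, had 26.4, 33.9 and 48.2 FPKM in E40 libraries 1, 2 and 3, 79.5, 60.7 and 68.2 FPKM in those of E50, and 41.5, 7.62 and 27.4 FPKM in those of E60. Its E50 values lay above every value of the other stages, and its stage means were 36.1 ± 11.1, 69.5 ± 9.46 and 25.5 ± 17.0 FPKM (SD, n = 3 per stage). SDC2, typical of mesenchymal cells, had 35.4, 36.7 and 38.3 FPKM at E40, 56.8, 64.1 and 65.9 FPKM at E50 and 56.4, 16.5 and 25.4 FPKM at E60. The E60 value of the deep library was just under the lowest E50 value, and both shallow E60 values were under all of E40. Means for SDC2 were 36.8 ± 1.45, 62.3 ± 4.80 and 32.8 ± 20.9 FPKM (SD, n = 3).

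SDC4, a syndecan of focal adhesions, had 13.0, 17.4 and 29.2 FPKM at E40, 27.8, 22.5 and 32.2 FPKM at E50 and 15.3, 7.37 and 11.6 FPKM at E60. Its E40 and E50 values overlapped and its E60 values were under all of E50. The length behind its FPKM was only 491 bases, so its shallow values rest on few reads: 6, 9 and 19 at E40 and 5 and 10 in E60 libraries 2 and 3. The value of 7.37 FPKM from 5 reads has an exact Poisson 95% interval of 2.39 to 17.2 FPKM, which, like the others here, covers counting error only. SDC3, best known from nerve and muscle, was the lowest syndecan, with 3.84, 2.91 and 3.54 FPKM at E40, 7.51, 5.40 and 5.79 FPKM at E50 and 4.64, 0.783 and 2.97 FPKM at E60. Its E50 values stood above all others, and its value in E60 library 2 came from 6 reads (exact Poisson 95% interval 0.287 to 1.70 FPKM). All 9 genes had more than 3 reads in every library, the level taken as the floor.

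The 2 glypicans were expressed at like levels. GPC1, a broadly expressed glypican, had 18.0, 21.1 and 24.6 FPKM at E40, 45.5, 31.6 and 38.7 FPKM at E50 and 35.9, 6.86 and 30.9 FPKM at E60. GPC3, a fetal glypican that restrains growth, had 20.0, 17.3 and 25.4 FPKM at E40, 32.5, 30.5 and 33.7 FPKM at E50 and 36.3, 10.7 and 15.2 FPKM at E60. Both were higher in every E50 library than in every E40 library, and both overlapped between E60 and each earlier stage. HSPG2, in contrast, was low per length, with 3.63, 3.15 and 3.67 FPKM at E40, 10.1, 7.10 and 7.95 FPKM at E50 and 11.0, 2.75 and 5.53 FPKM at E60. Its highest value was in the deep E60 library and its lowest in a shallow one of the same stage. Means for HSPG2 were 3.48 ± 0.293, 8.37 ± 1.52 and 6.42 ± 4.19 FPKM (SD, n = 3).

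VCAN was the most abundant of the 9 genes in all 9 libraries. It had 41.9, 52.5 and 67.6 FPKM at E40, 288, 366 and 321 FPKM at E50 and 528, 102 and 149 FPKM at E60, with means of 54.0 ± 12.9, 325 ± 39.1 and 259.6 ± 234 FPKM (SD, n = 3). All values of E50 and E60 were above all of E40, and E60 library 1 was above every other library. Among the 19618 genes tested, VCAN lay at percentile 91.8 to 94.9 at E40, 99.0 to 99.1 at E50 and 97.8 to 99.4 at E60. CD44 had 3.36, 5.99 and 6.55 FPKM at E40, 13.3, 12.9 and 13.0 FPKM at E50 and 40.6, 7.61 and 18.0 FPKM at E60, with means of 5.30 ± 1.70, 13.1 ± 0.229 and 22.1 ± 16.9 FPKM (SD, n = 3). E40 was below both later stages without overlap, while E60 spanned the E50 values.

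**Figure D1:**
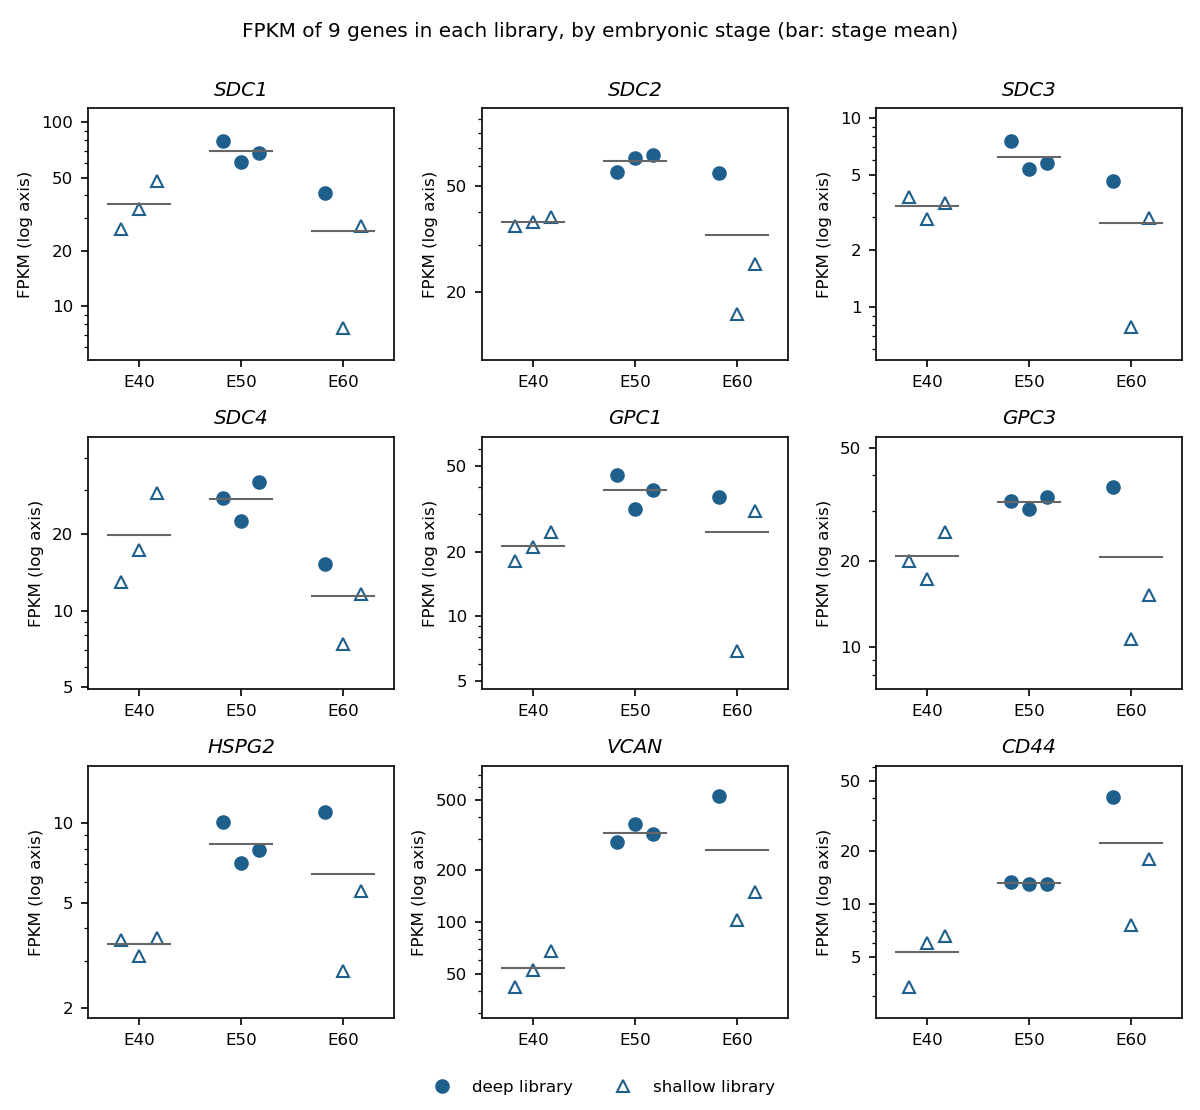
FPKM (log axis) of the 9 genes in each library by embryonic stage, with filled circles for deep libraries, open triangles for shallow libraries and a bar for the stage mean. The 4 syndecans are lower in all E60 than in all E50 libraries, VCAN and CD44 are higher in all E60 than in all E40 libraries, and within E60 the deep library is the highest for every gene.

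Within a library the order of the 9 genes was stable at the top and bottom. VCAN ranked 1 and HSPG2 ranked 8 in every library, and SDC3 ranked 9 in all E50 and E60 libraries. SDC1 and SDC2 followed VCAN at E40 and E50 but changed places between libraries, with an SDC1 to SDC2 ratio of 0.745 to 1.26 at E40 and 0.948 to 1.40 at E50, so they were not ordered beyond their spread. GPC1, GPC3 and SDC4 likewise shared ranks 4 to 6 at E40 without a fixed order, and at E50 they held ranks 4, 5 and 6 in all libraries. CD44 moved from ranks 7 to 9 at E40 and rank 7 at E50 to ranks 4 to 5 at E60.

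From the cap to the early bell stage, VCAN values were higher and passed the test, with all E40 libraries shallow and all E50 libraries deep. The other 8 genes had higher means at E50 and did not pass the test. SDC1, SDC2, SDC3, GPC1, GPC3, HSPG2, VCAN and CD44 were higher in all 3 E50 libraries than in all 3 E40 libraries, which makes 8 of 9 genes against 45.2% of the 19618 genes tested. Genes were called in limma on log2(FPKM + 0.1) where the adjusted p was under 0.05 and the log2 fold change was 1 or more in size. VCAN had a log2 fold change of 2.61 ± 0.57 (SE, adjusted p = 0.0131). It was the only call among the 9, against 16.8% of all genes called higher. The values nearest to it were 1.34 ± 0.58 for CD44 (adjusted p = 0.0880) and 1.23 ± 0.51 for HSPG2 (adjusted p = 0.0811), and the other 6 genes had log2 fold changes of 0.53 (SDC4) to 0.98 (SDC1).

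The median log2 fold change was 0.85 over the 9 genes and 0.55 over all genes tested. Scaling the libraries by median ratios took the median of all genes to -0.09, from -0.64 to 0.08 for E50 to E60 and from -0.22 to -0.12 for E40 to E60. On that scale VCAN remained called from E40 to E50, at 1.95 ± 0.31 (adjusted p = 0.0158), while CD44 stood at 0.69, HSPG2 at 0.58, SDC4 at -0.13 and GPC3 at -0.02. The call of VCAN missed the adjusted p without E40 library 1 (2.44, adjusted p = 0.0516), without E50 library 2 (2.52, adjusted p = 0.0539) and without E50 library 3 (2.61, adjusted p = 0.0541). Without E60 library 1, which enters only through the shared spread, HSPG2 (adjusted p = 0.00960) and CD44 (adjusted p = 0.0140) passed beside VCAN, 3 of 9 genes against 30.5% of all genes called higher. The same 3 passed without E60 library 2, where 5482 of the 19184 genes tested were called higher. With library set as a covariate, which draws this contrast through E60, the VCAN difference was 0.51 ± 0.49 (adjusted p = 0.903). The summed dental mesenchyme markers were higher at E50 than at E40, as VCAN was, mainly through VIM and COL3A1. Of these markers MSX1, LHX6, COL1A1, DSPP and DMP1 overlapped between the 2 stages. Summed endothelium markers (5 of 6 symbols) were 22.7 to 25.5 FPKM at E40, 53.3 to 56.8 at E50 and 20.4 to 63.8 at E60, mainly PECAM1 and KDR, while TIE1 was lower at E50 (0.521 to 1.09 FPKM) than at E40 (3.31 to 3.94 FPKM). Their part in these values was not tested, and fewer cells of a type cannot be told apart from less RNA per cell.

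From the early to the late bell stage, the syndecans had the lowest fold changes. All 4 syndecans were lower in all 3 E60 libraries than in all 3 E50 libraries, 4 of 9 genes against 21.6% of all genes, and the other 5 genes overlapped. None of the 9 passed limma over the 9 libraries, against 0.0714% of all genes called. At an unadjusted p under 0.05 there were 4, the syndecans, in this test and 4 by limma-voom on the recovered reads, which called none either. Of the 19618 genes tested, 5923 had such a p in this test and 4245 by limma-voom. Log2 fold changes were -1.74 ± 0.58 for SDC1, -1.42 ± 0.62 for SDC3, -1.31 ± 0.42 for SDC4 and -1.11 ± 0.43 for SDC2 (SE, adjusted p = 0.164 to 0.165). GPC1 stood at -0.95, GPC3 at -0.83, VCAN at -0.69, HSPG2 at -0.58 and CD44 at 0.44, the only value above 0. The median was -0.95 over the 9 genes and -0.64 over all genes.

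These values turn on which E60 library is taken. Without E60 library 1, the deep library of that stage, 7 of the 9 genes were called lower at E60, against 39.1% of all genes: SDC1 (-2.25), SDC3 (-1.93), SDC2 (-1.59), SDC4 (-1.55), VCAN (-1.39), GPC3 (-1.33) and HSPG2 (-1.07), with adjusted p of 7.41e-04 to 0.0284. GPC1 (-1.38, adjusted p = 0.0527) and CD44 (-0.15) were not called. This fit compares deep E50 with shallow E60 libraries, and the median of all genes was -0.94. With median-ratio scaling beside it, SDC1 alone was called, at -1.18 ± 0.32 (adjusted p = 0.0165), against 12.8% of all genes called lower. Taken within the deep set, that is, E60 library 1 against the 3 E50 libraries with library set as a covariate, the log2 differences were 1.63 ± 0.53 for CD44, 0.71 ± 0.38 for VCAN, 0.40 for HSPG2, 0.17 for GPC3, -0.09 for GPC1, -0.14 for SDC2, -0.41 for SDC3, -0.73 for SDC1 and -0.83 for SDC4. None was called, against 0.107% of all genes, and the adjusted p of CD44 was 0.846. The E60 side of this comparison is 1 library, which is assumed to vary like the other groups, so these standard errors and p-values come from the spread of other libraries. CD44 alone of the 9 genes had an unadjusted p under 0.05 on that assumption.

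From the cap to the late bell stage, VCAN and CD44 were the 2 genes without overlap, both higher in all E60 than in all E40 libraries, against 3.89% of all genes. In limma their log2 fold changes were 1.92 ± 0.57 (adjusted p = 0.149) and 1.78 ± 0.58 (adjusted p = 0.182). No member was called, against 1.80% of all genes, and limma-voom likewise called none. In limma, 2 of the 9 had an unadjusted p under 0.05, against 3520 of the 19618 genes. HSPG2 stood at 0.65, GPC1 at -0.09, GPC3 at -0.19, SDC2 at -0.35, SDC3 at -0.58, SDC1 at -0.77 and SDC4 at -0.78. The median was -0.19 over the 9 genes and -0.22 over all genes.

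Whether VCAN and CD44 passed depended on scaling and on E60 library 2, in which the 3 abundant entries took 52.3% of the reads. With median-ratio scaling both were called, VCAN at 2.03 ± 0.31 (adjusted p = 0.0122) and CD44 at 1.90 ± 0.31 (adjusted p = 0.0152), 2 of 9 genes against 2.05% of all genes called higher. Without E60 library 2 they were called at 2.40 (adjusted p = 0.0353) and 2.39 (adjusted p = 0.0231), against 454 of the 19184 genes tested there called higher. Within the shallow set, E60 libraries 2 and 3 against the 3 E40 libraries, VCAN differed by 1.22 ± 0.30 (adjusted p = 0.0546) and CD44 by 1.19 ± 0.42 (adjusted p = 0.130). No member was called there, against 5.89% of all genes. An unadjusted p under 0.05 was found for 6 of the 9, against 4905 of the 19618 genes. With median-ratio scaling and library set together, VCAN (1.66 ± 0.19, adjusted p = 0.00249) and CD44 (1.63 ± 0.26, adjusted p = 0.0119) were called, against 2.64% of all genes called higher. VCAN, CD44 and HSPG2 were above 0 in this comparison in all 21 alternatives tried, HSPG2 at 0.16 to 1.14 and without a call.

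Set side by side, the differences within the shallow set (E60 against E40) and within the deep set (E60 against E50) share no library, although they span different intervals. The median of all genes tested was -0.46 in the shallow set and -0.07 in the deep set. The 4 syndecans were below 0 in both sets, but SDC2 in the deep set lay close to the median of all genes, as did GPC1 in the shallow set. In the shallow set SDC1 stood at -1.27, SDC3 at -1.09, SDC4 at -1.02 and SDC2 at -0.84, and in the deep set at -0.73, -0.41, -0.83 and -0.14 in the same order. VCAN, CD44 and HSPG2 were above 0 in both sets, HSPG2 by only 0.16 and 0.40. The glypicans were below 0 in the shallow set, GPC1 at -0.53 and GPC3 at -0.69, and near 0 in the deep set. No member of the 9 passed the limits in either of these fits.

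**Figure D2:**
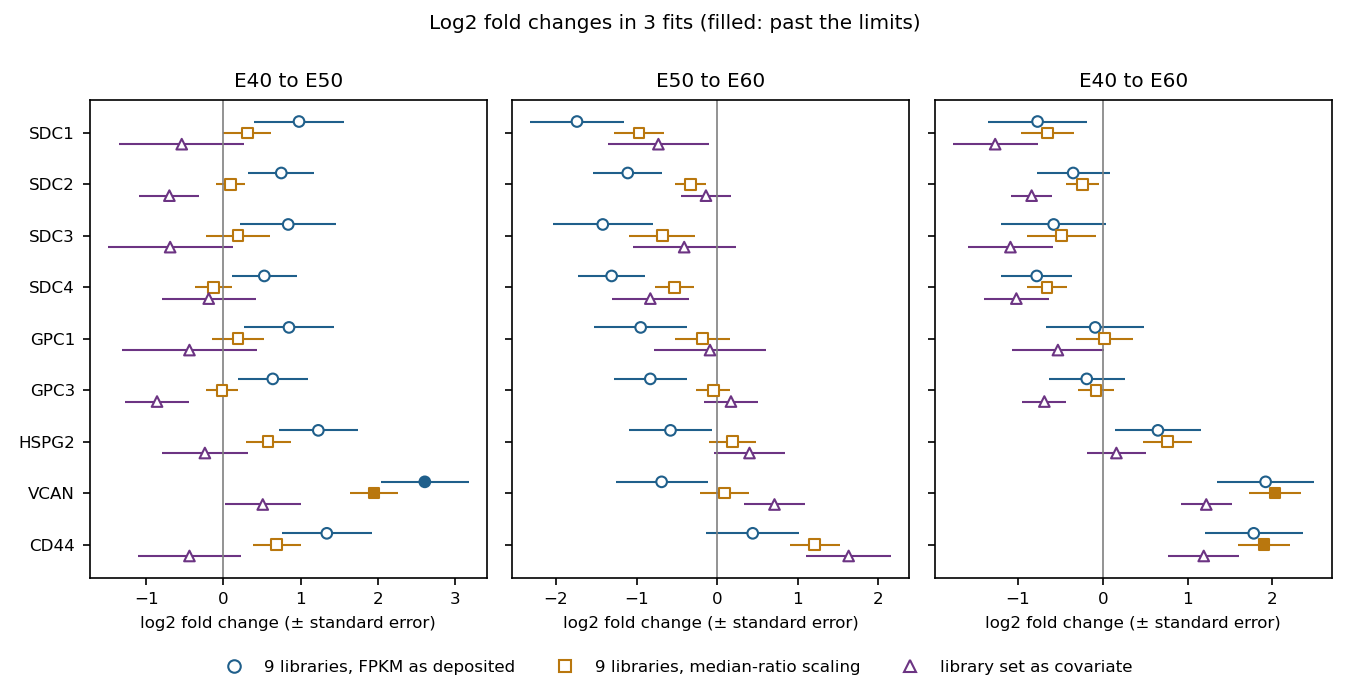
Log2 fold changes (± standard error) of the 9 genes in 3 comparisons, each from 3 fits: FPKM as deposited (circles), median-ratio scaling (squares) and library set as covariate (triangles), filled where past the limits. VCAN is filled in E40 to E50 (2.61 and 1.95), VCAN and CD44 in E40 to E60 with median-ratio scaling (2.03 and 1.90), and with library set as covariate 8 genes other than VCAN lie below 0 in E40 to E50 while CD44, GPC3, HSPG2 and VCAN lie above 0 in E50 to E60.

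Ratios and shares within a library do not depend on how libraries are scaled to each other. VCAN made up 25.3%, 27.5% and 27.4% of the summed FPKM of the 9 genes at E40, 51.4%, 60.9% and 54.7% at E50 and 68.6%, 62.9% and 52.0% at E60, that is, 26.7 ± 1.23%, 55.7 ± 4.86% and 61.2 ± 8.42% (SD, n = 3). All E50 and E60 libraries, deep or shallow, were above all E40 libraries, and E50 and E60 overlapped. As shares sum to a fixed whole, the shares of other genes were lower where that of VCAN was higher: SDC1 made up 15.9%, 17.7% and 19.5% at E40, 14.2%, 10.1% and 11.6% at E50 and 5.39%, 4.69% and 9.58% at E60. With 3 libraries against 3, an exact two-sided permutation test cannot go below p = 0.10, so shares and ratios are given with no test.

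The ratio of VCAN to SDC2, 2 genes typical of mesenchyme, was 1.18, 1.43 and 1.76 at E40, 5.07, 5.71 and 4.87 at E50 and 9.36, 6.17 and 5.84 at E60. The 3 stages did not overlap in it, and E60 library 1 stood apart. The gap between E50 and E60 was small, however, at 5.71 against 5.84. SDC2 rested on 81 and 159 reads in E60 libraries 2 and 3 (exact Poisson 95% intervals 13.1 to 20.5 and 21.6 to 29.7 FPKM). E60 libraries 2 and 3 were thus not above E50 beyond counting error. Relative to HSPG2, the other large matrix proteoglycan, VCAN was 11.5 to 18.4 times as abundant at E40, 28.7 to 51.6 times at E50 and 26.9 to 48.1 times at E60. CD44 to SDC1, a receptor for hyaluronan against a heparan sulfate proteoglycan, was 0.127, 0.177 and 0.136 at E40, 0.167, 0.212 and 0.191 at E50 and 0.978, 0.999 and 0.660 at E60. All E60 libraries of both sets were thus above all others in this ratio, and E40 and E50 overlapped. CD44 also took a larger share of the 9 genes in each E60 library (5.27%, 4.69% and 6.32%) than in any other library (2.03% to 3.14%). CD44 and SDC1 had the highest and the lowest log2 fold change of the 9 genes from E50 to E60. The ratio of CD44 to VCAN was 0.0802 to 0.114 at E40, 0.0351 to 0.0462 at E50 and 0.0746 to 0.121 at E60. In that ratio E60 overlapped E40 and lay above E50. Blood and immune markers (8 of 10 symbols, CD163 listed at 0) summed to 226 to 389 FPKM at E40, 729 to 1026 at E50 and 95.3 to 675 at E60, nearly all of it HBB, a globin of red blood cells. The leukocyte marker PTPRC was at 0, 0.282 and 0 FPKM at E40, 0.284, 0.498 and 0.413 FPKM at E50 and 0.921, 0.645 and 0.337 FPKM at E60. CSF1R, from the same list, did not rise with it. It was at 1.12, 0.499 and 0.397 FPKM at E40, 0.358, 0.205 and 0.219 FPKM at E50 and 0.293, 0.190 and 0.448 FPKM at E60. Both markers were low in every library. Summed enamel epithelium markers reached their highest values at E60, as given above. The part of blood, immune and epithelial cells in the CD44 values was not tested.

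The make-up of the syndecan and glypican groups varied less than these ratios. Of the summed syndecan FPKM, SDC1 made up 37.1 ± 3.43% at E40, 41.9 ± 3.82% at E50 and 33.1 ± 8.71% at E60, SDC2 39.2 ± 6.53%, 37.8 ± 4.45% and 45.6 ± 6.98%, SDC4 20.1 ± 4.06%, 16.5 ± 2.01% and 17.7 ± 4.95%, and SDC3 3.68 ± 1.04%, 3.76 ± 0.540% and 3.59 ± 1.04% (SD, n = 3). Each of the 4 overlapped between E40 and E60 and between E50 and E60. The sum itself was 78.7, 90.9 and 119 FPKM at E40, 172, 153 and 172 FPKM at E50 and 118, 32.3 and 67.3 FPKM at E60. GPC1 made up 50.5 ± 3.96%, 54.2 ± 3.78% and 51.9 ± 14.1% of the sum of GPC1 and GPC3 at the 3 stages (SD, n = 3), and the wide spread at E60 came from E60 library 2 at 39.0% and library 3 at 67.0%.

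**Figure D3:**
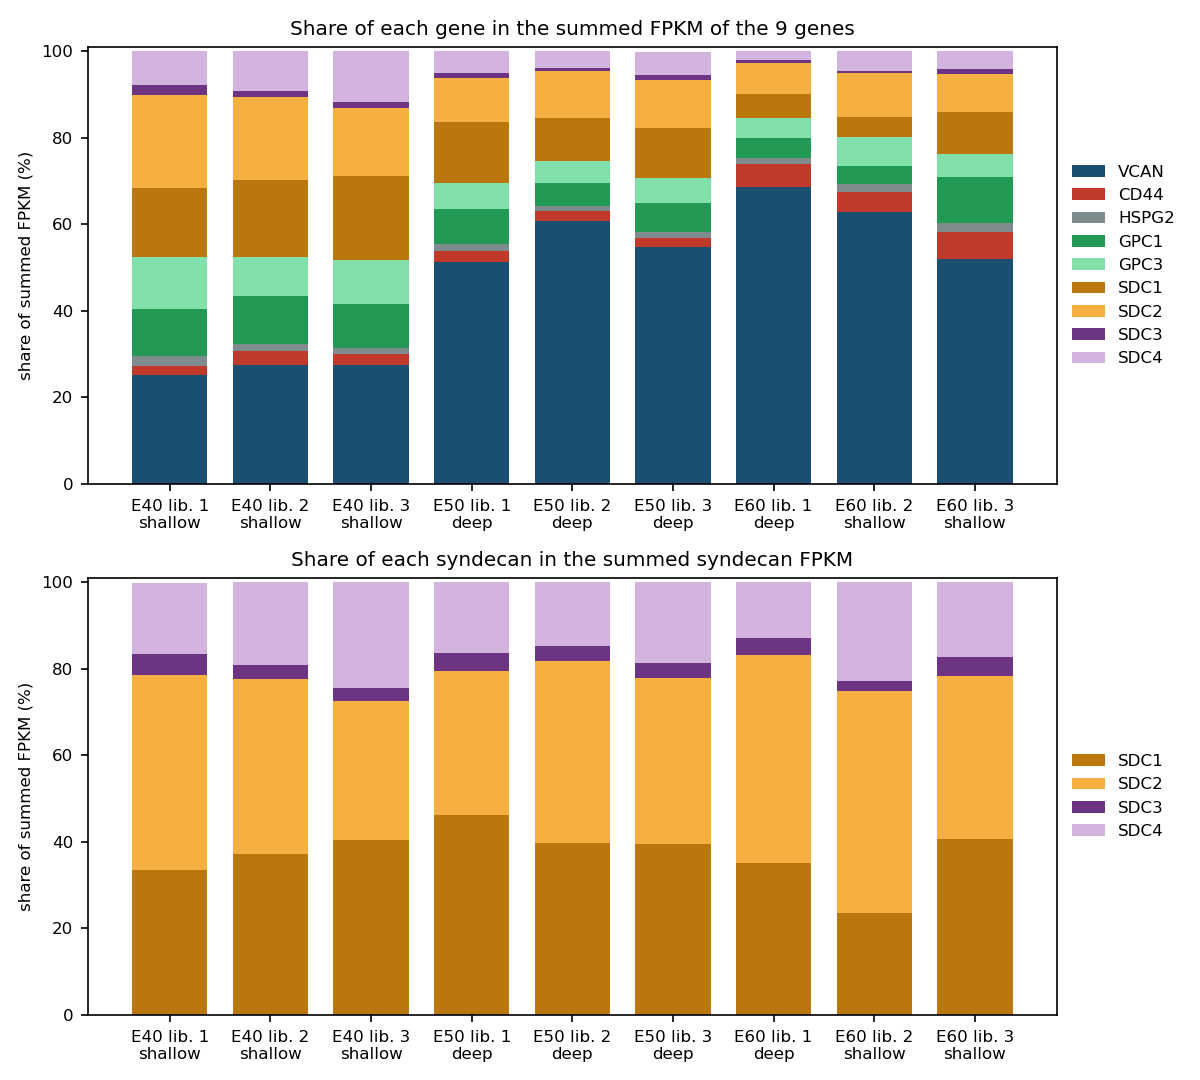
Share (%) of each gene in the summed FPKM of the 9 genes (top) and of each syndecan in the summed syndecan FPKM (bottom), with a stacked bar for each library, named by stage and set. VCAN takes 25.3% to 27.5% of the bar at E40 and 51.4% to 68.6% in the later libraries of both sets, while SDC1 and SDC2 make up most of the syndecan sum in every library.

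Other genes of the same pathways were taken from lists of 91 symbols, of which 80 were matched, 68 passed the filter on low values and 3 (AGRN, HS3ST1 and KIAA1199) were listed at 0 in every library. From E40 to E50, 9 of the 68 were called higher, against 16.8% of all genes, and 7 lower, against 21.8% of all genes. From E50 to E60 none was called by limma on the FPKM, against 14 of the 19618 genes. An unadjusted p under 0.05 was found for 15 of the 68, against 5923 of all genes. Limma-voom on the reads called 1 of the 68, against 61 of all genes. From E40 to E60 HAPLN1 was called higher and no other gene of the lists, against 130 of the 19618 genes called higher and 224 lower. With library set as a covariate, E40 to E60 gave HAPLN1 higher and EXTL1 and ADAMTS4 lower, against 276 of all genes called higher and 879 lower. E40 to E50 and E50 to E60 gave none, and in that fit both rest on E60 library 1. Without E60 library 1, a comparison of deep with shallow libraries, the calls among the 68 were 23 higher (30.5% of all genes) and 9 lower (24.2% of all genes) from E40 to E50, and 5 higher (20.0% of all genes) and 29 lower (39.1% of all genes) from E50 to E60.

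Hyaluronan genes held 5 of the higher and 2 of the lower calls from E40 to E50 among 13 tested, against 16.8% and 21.8% of all genes. Their median log2 fold change was 1.34 against 0.55 over all genes, 0.68 against -0.09 with median-ratio scaling and 0.00 against -0.36 with library set as a covariate. HAPLN1, the link protein that fixes versican to hyaluronan, had 1.74, 2.14 and 6.19 FPKM at E40 (8, 11 and 40 reads), 169, 217 and 216 FPKM at E50 and 369, 35.7 and 71.7 FPKM at E60. Every E50 and E60 library was above every E40 library, by 6.07 ± 0.80 on the log2 scale from E40 to E50 (adjusted p = 0.00758) and by 5.05 ± 0.80 from E40 to E60 (adjusted p = 0.0169). Within the shallow set the E40 to E60 difference was 4.10 ± 0.53 (adjusted p = 0.00560). The E40 to E60 call was missed without E40 library 1 (4.71, adjusted p = 0.0730) or E40 library 2 (4.85, adjusted p = 0.0736), and that of E40 to E50 without E50 library 2 (6.01, adjusted p = 0.0528) or E50 library 3 (6.02, adjusted p = 0.0541). Relative to VCAN, HAPLN1 was 0.0417, 0.0408 and 0.0915 at E40, 0.588, 0.592 and 0.673 at E50 and 0.698, 0.350 and 0.483 at E60, again without overlap between E40 and the later stages.

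Among the other genes that act on hyaluronan, TNFAIP6, which transfers heavy chains to it, was called higher at E50 (adjusted p = 0.0330), with E40 reads of 2, 0 and 0, under the floor, and 5.99, 6.02 and 9.61 FPKM at E50. The call of TNFAIP6 was missed with median-ratio scaling (adjusted p = 0.0581). HMMR, a hyaluronan-binding protein of the mitotic spindle, had 5.77, 3.29 and 6.87 FPKM at E40 and 23.7, 32.7 and 30.6 FPKM at E50 (2.48 ± 0.65, adjusted p = 0.0202). HAS1, a hyaluronan synthase, and STAB1, a scavenger receptor of the stabilin family, were lower at E50. HAS1 had 7.02, 7.11 and 6.97 FPKM at E40, 0.360, 0.0790 and 0.153 FPKM at E50 and 0.0545, 3.50 and 5.24 FPKM at E60, and STAB1 had 13.2, 11.8 and 10.6 FPKM at E40, 2.58, 1.82 and 1.86 FPKM at E50 and 2.81, 5.89 and 6.76 FPKM at E60. In HAS1, TNFAIP6, HMMR and STAB1 the E60 libraries stood with their own set rather than with each other: E60 library 1 lay with the E50 libraries and E60 libraries 2 and 3 lay nearer to E40. HAPLN1 differed from these in that the shallow E60 values were 35.7 and 71.7 FPKM against at most 6.19 FPKM in the shallow E40 libraries. PTX3 (1.85) and UGDH (1.81, adjusted p = 0.0498), which makes the sugar precursor of hyaluronan, were the other hyaluronan genes called higher at E50.

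**Figure D4:**
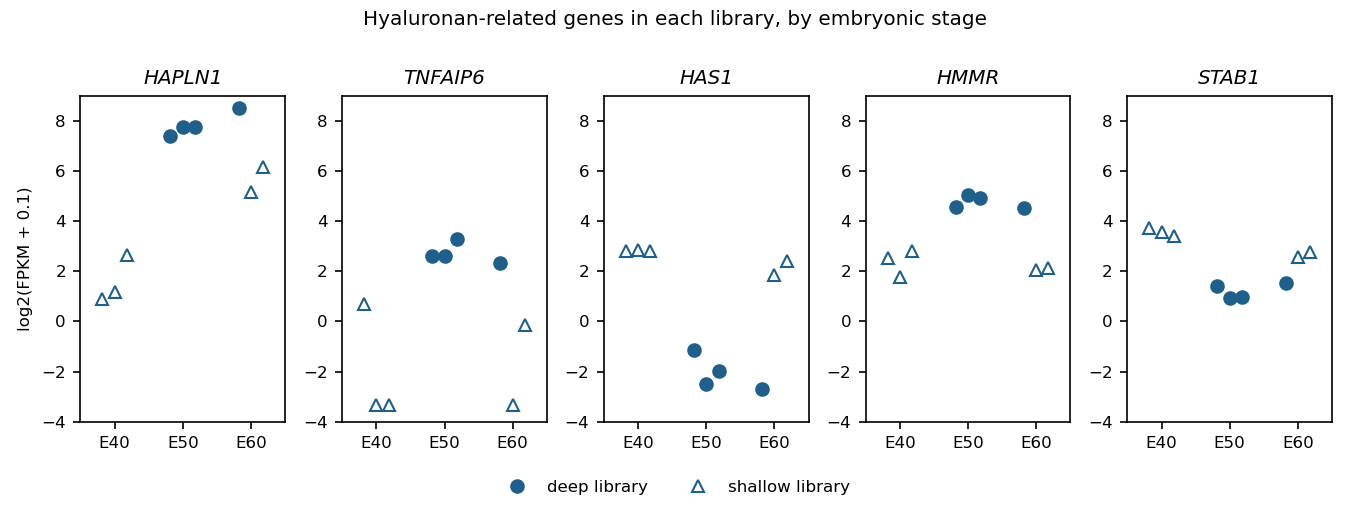
Log2(FPKM + 0.1) of 5 hyaluronan genes in each library by stage, with filled circles for deep and open triangles for shallow libraries. HAPLN1 is above its E40 values in every E60 library, whereas HAS1 and STAB1 are high in shallow and low in deep libraries and HMMR and TNFAIP6 the reverse.

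In heparan sulfate synthesis and editing, 2 of 18 tested genes were called higher and 4 lower from E40 to E50, against 16.8% and 21.8% of all genes. GLCE, the epimerase that turns glucuronic into iduronic acid, had 9.43, 13.1 and 20.1 FPKM at E40, 61.1, 75.5 and 62.9 FPKM at E50 and 54.7, 6.92 and 12.1 FPKM at E60 (E40 to E50 2.28 ± 0.68, adjusted p = 0.0293), and EXTL2 was called at 1.92. HPSE, the enzyme that cuts heparan sulfate chains, had 6.19, 8.29 and 8.05 FPKM at E40, 0.330, 0.368 and 0.494 FPKM at E50 and 0.721, 4.21 and 4.95 FPKM at E60 (E40 to E50 -3.94 ± 0.71, adjusted p = 0.0124). Both genes showed the split by set within E60. EXTL1, a glycosyltransferase of chain assembly, did not: it had 5.68, 5.63 and 5.14 FPKM at E40, 0.990, 0.816 and 0.968 FPKM at E50 and 0.954, 0.214 and 1.18 FPKM at E60, with -2.45 ± 0.62 from E40 to E50 (adjusted p = 0.0185) and -3.14 ± 0.58 from E40 to E60 within the shallow set (adjusted p = 0.0209), where the E60 values rest on 1 and 7 reads. HS3ST5 (-1.97, adjusted p = 0.0150) and NDST4 (-3.25, adjusted p = 0.0198), both sulfotransferases of heparan sulfate, were the other genes called lower at E50. NDST4 was low throughout, with a highest stage mean of 1.40 FPKM.

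Of the 21 tested genes for the linker and chondroitin sulfate, the chain that versican carries, 1 was called higher and 1 lower from E40 to E50, against 16.8% and 21.8% of all genes. CSGALNACT2, which starts chondroitin chains, had 2.65, 3.71 and 4.56 FPKM at E40, 16.4, 22.8 and 19.4 FPKM at E50 and 23.8, 3.86 and 7.06 FPKM at E60 (E40 to E50 2.41 ± 0.61, adjusted p = 0.0182). It showed the split by set within E60 and stood at 0.25 from E40 to E50 with library set as a covariate. CHST13, a chondroitin sulfotransferase, averaged 9.67 ± 4.12 FPKM at E40, 0.227 ± 0.0604 FPKM at E50 and 6.16 ± 3.30 FPKM at E60 (SD, n = 3), with 8, 6 and 5 reads in the E50 and 89, 15 and 31 reads in the E60 libraries (E40 to E50 -4.82 ± 0.58, adjusted p = 0.00537). From E50 to E60 its log2 fold change was 4.13 ± 0.58 over all libraries (adjusted p = 0.0536), with E60 values above all E50 values. It was called with median-ratio scaling (4.73, adjusted p = 0.0345) and without E60 library 1 (4.56, adjusted p = 8.71e-05), and E60 library 1 differed from the E50 libraries by 3.26. Of the 12 named genes it alone kept its call from E40 to E50 whichever of the 9 libraries was left out. Of the 12 calls from E40 to E50, 2 were kept without E40 library 1 and 5 without E40 library 2, 11 without E40 library 3 and 6 without E50 library 1, 1 without E50 library 2 and 1 without E50 library 3, and all 12 without any single E60 library.

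Among 10 proteases that cleave versican or shed syndecans and CD44, ADAM10, which sheds CD44, was the only call from E40 to E50 in limma on the FPKM as deposited, against 16.8% of all genes called higher. It had 33.2, 49.0 and 69.6 FPKM at E40, 165, 218 and 191 FPKM at E50 and 220.0, 43.7 and 75.1 FPKM at E60 (1.97 ± 0.57, adjusted p = 0.0267). ADAM10 showed the split by set within E60 and stood at 0.03 from E40 to E50 with library set as a covariate. With median-ratio scaling, 1 of the 10 was called higher and 2 lower, against 2392 and 4878 of the 19618 genes. Limma-voom likewise gave 1 and 2, against 2069 and 4801. ADAMTS4, a protease of versican with a highest stage mean of 3.82 FPKM, was called lower from E40 to E60 within the shallow set (-1.79, adjusted p = 0.0279). None of the 5 other heparan sulfate proteoglycans tested was called over the 9 libraries by limma or limma-voom. From E40 to E50, 1 had an unadjusted p under 0.05 in limma, against 10134 of the 19618 genes. Their median from E40 to E50 was 0.77 against 0.55 over all genes. Of the other hyaluronan-binding proteoglycans of the versican family, ACAN alone passed the filter and stood at 0.64 in the same comparison.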

How the data were processed

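The authors depleted total RNA of rRNA, made directional libraries, sequenced paired ends and, per the labels, aligned them with TopHat. The submitters' processing notes name the build Sscrofa10.2. The authors deposited 1 table of FPKM, with 34580 genes and transcripts and a column for each of 9 libraries. The counter, annotation and strand setting are not given in the sources used here. No coordinates or sequences were used. The Methods name count-based tests, in place of which limma on the FPKM was used, with limma-voom on recovered reads as an alternative.

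FPKM of a gene are whole multiples of the value of 1 read, and whole reads (within 0.02) were assigned to all 28963 genes above 0. The smallest whole numbers that fit were taken, so reads of a gene are too low where they share a common factor. Reads gave depth, intervals (exact Poisson, 95%) and the floor of 3 reads. The 19618 genes that reached an FPKM of 1 in 2 or more libraries were compared as log2(FPKM + 0.1), which understates the change of low genes, with limma 3.58.1 in R 4.3.3 (mean-variance trend, a coefficient per stage, Benjamini-Hochberg adjustment over all genes), at adjusted p under 0.05 and an absolute log2 fold change of at least 1. The script was checked on simulated data. The other computations used Python 3.11.15, pandas 2.3.3 and scipy 1.17.1.

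Library sets were divided at 5000000 reads. With library set as a covariate, each contrast with E60 is taken within a set. Named were all matched members and, of the other lists, at most 12 genes past the limits over the 9 libraries or with library set as a covariate, by size of change, with at least 5 FPKM in the highest stage mean. PTX3, UGDH, EXTL2, NDST4 and ADAMTS4 were named after their values were seen. The members and lists were chosen with earlier results of these data known. Median-ratio scaling with library set, and library totals without LOC102158401, TEX14 and LOC102165137, were alternatives chosen after seeing the data.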

Additional observations from a re-analysis of the deposited data

How the results depend on the processing

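Of 567 log2 fold changes of the 9 genes under 21 alternatives, 503 kept their direction and side of the limits, 24 newly passed, 5 no longer passed and 35 changed sign, none of them a called value. The number of genes called from E40 to E50, 1 over the 9 libraries, was 0 with library set as a covariate, 0 with library set and median-ratio scaling, 3 in a fit of only the compared stages, and 0 to 3 when each library was left out. Over all genes, the fit of only the compared stages called 6227 of 18802 higher. Without E60 library 1 it was 5937 of 19493, and without E60 library 2 it was 5482 of 19184. From E50 to E60, 0 became 1 with E60 library 1 left out and median-ratio scaling, and 0 to 7 when each library was left out. The 1 stands against 12.8% of all genes called lower, and the 7, without E60 library 1, against 39.1%. From E40 to E60, 0 became 2 with median-ratio scaling, 2 with E60 library 1 left out and median-ratio scaling, 2 with library set and median-ratio scaling, 2 with the 3 abundant entries out of the library totals, and 0 to 2 when each library was left out. Over all genes, those fits called 403 of 19618, 490 of 19493, 517 of 19618 and 300 of 20631 higher, in that order. Without E60 library 2 it was 454 of 19184. The cause of these shifts was not tested. Changes of sign from E40 to E50 with library set were SDC1 -0.54, SDC2 -0.70, SDC3 -0.69, SDC4 -0.19, GPC1 -0.44, GPC3 -0.86, HSPG2 -0.24 and CD44 -0.44, with library set and median-ratio scaling SDC1 -0.22, SDC2 -0.38, SDC3 -0.40, GPC1 -0.12, GPC3 -0.54 and CD44 -0.11, with median-ratio scaling SDC4 -0.13 and GPC3 -0.02 (SDC4 -0.11 and GPC3 -0.00 with E60 library 1 left out), and SDC4 -0.04 without the 3 entries. From E50 to E60 they were GPC3 0.17, HSPG2 0.40 and VCAN 0.71 with library set, GPC1 0.03, GPC3 0.29, HSPG2 0.52 and VCAN 0.83 with library set and median-ratio scaling, HSPG2 0.19 and VCAN 0.09 with median-ratio scaling, and CD44 when single libraries were left out, at -0.15 to 1.05, the lowest without E60 library 1. From E40 to E60 they were GPC1 0.02 with median-ratio scaling and, when single libraries were left out, SDC2 at -0.84 to 0.04, SDC3 at -1.09 to 0.12, GPC1 at -0.53 to 0.66 (0.02 without E40 library 3) and GPC3 at -0.69 to 0.19, each highest without E60 library 2.

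Libraries with the same number share only that number: the correlation of their deviations from the stage means was -0.52 to 0.11. With a replicate block, 1, 0 and 0 of the 9 genes were called in E40 to E50, E50 to E60 and E40 to E60, as without it, and the calls over all genes were 5104, 4 and 82 against 7580, 14 and 354. Over all genes, limma-voom called 6870, 61 and 273, and library set gave 50, 21 and 1155. Median-ratio scaling gave 7270, 81 and 720, with 2392 higher and 4878 lower from E40 to E50 against 3296 and 4284. Leaving out single libraries gave 58 to 10650, 4 to 11529 and 128 to 1181. Depth limits the shallow libraries most, where SDC4 had 5 to 19 reads.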
